A study of Homo sapiens with 4 samples.

Results

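Late-annotated microRNAs (miRNAs) are here the mature miRNAs whose miR number is 3000 or more, on either arm of the hairpin, with miR-4286 left out. They were taken by name alone, and 272 of the 826 mature miRNAs in the count table of H661 cells met the rule. H661 is a human cell line from a large cell carcinoma of the lung. Its cells were grown with 10% fetal bovine serum and given, for 8 h, either dimethyl sulfoxide (DMSO, the solvent) or 2.5 µM entinostat, a benzamide that inhibits class I histone deacetylases. Small RNA was sequenced in 2 libraries per treatment, and all 4 came from this 1 line. Whether the replicates came from separate cultures is not stated, and p-values therefore reflect only how far these libraries vary, which may be technical.

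A miRNA is a short RNA of about the length of the sequences below. It is cut from a hairpin, from its 5p or 3p arm, and guides Argonaute proteins to messenger RNAs that pair with its seed (bases 2 to 8). Numbers are given in order of registration. High numbers thus belong to miRNAs found late, mostly by deep sequencing, among them many rare ones, products of short introns (mirtrons) and entries whose sequence resembles other RNA classes. A miRNA count is a count of whole short molecules, so levels of different miRNAs were compared as CPM, counts relative to the library total, without a length term, although recovery in library preparation can differ between sequences.

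RefSeq (GRCh38.p14) gave a mature sequence for 236 of the 272 late-annotated miRNAs. The sequences of the abundant ones, and of those that lay farthest toward a difference between the treatments, follow 5′ to 3′ with the seed in capitals.
miR-3180: uGGGGCGGagcuuccggag
miR-3180-3p: uGGGGCGGagcuuccggaggcc
miR-3180-5p: cUUCCAGAcgcuccgccccacgucg
miR-4521: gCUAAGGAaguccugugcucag
miR-7974: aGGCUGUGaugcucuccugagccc
miR-3615: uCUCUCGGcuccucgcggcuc
miR-7706: uGAAGCGCcugugcucugccgaga
miR-4483: gGGGUGGUcuguuguug
miR-4421: aCCUGUCUguggaaaggagcua
The sequence of miR-3180, of 19 bases, lies wholly within miR-3180-3p, of 22 bases, and both share 1 seed. Both names belong to hairpin copies on chromosome 16.

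Total counts were 938559 and 561485 in the DMSO libraries, against 547875 and 753104 in the entinostat ones. No value of 1 occurs in the table: the smallest count above 0 is 2, with 381 values of 2 and 137 of 3 over all rows. A miRNA is therefore called detected here at 2 or more counts, and a listed 0 may stand for a single read. Among the late-annotated miRNAs 424 of 1088 values were 0 and 195 were 2. Of 6 epithelial markers, miR-200b, miR-200c and miR-205 were listed, with 16 to 39 counts in all per library, while miR-200a, miR-141 and miR-429 were not listed. Of 6 blood markers only miR-486 and miR-150 were listed, with 105 to 216 counts, nearly all of miR-486-5p. Liver miR-122, neuronal miR-124 and 3 muscle markers (2 of them listed) had 0 to 5, 0 to 2 and 3 to 9 counts. The part of other cells in the results was not tested.

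Late-annotated miRNAs made up 32.9% of the listed names and under 2% of the counts. Their share was 1.76% (exact Clopper-Pearson 95% interval 1.73 to 1.78%) and 1.76% (1.73 to 1.80%) in DMSO replicates 1 and 2, and 1.79% (1.75 to 1.82%) and 1.81% (1.78 to 1.84%) in entinostat replicates 1 and 2. Those intervals cover counting error only, since no molecular identifier is named. Both entinostat shares lay above both DMSO shares, at 1.80 ± 0.0182% against 1.76 ± 0.00345% (SD, n = 2). The difference of 0.0401 percentage points had p = 0.3333 in a two-sided exact permutation test, the smallest that 2 libraries against 2 can give. It rested on miR-4521, without which the shares were 1.52% and 1.53% with DMSO and 1.51% and 1.51% with entinostat, a difference of -0.00902 percentage points.

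Most of these counts were listed under 4 names. The 3 miR-3180 names held 52.3% and 53.7% of all late-annotated counts with DMSO and 53.3% and 50.9% with entinostat. With miR-4521 added, the share was 65.8%, 67.1%, 68.6% and 67.5% in the same order. Since miR-3180 lies within miR-3180-3p, these sums may count a read more than once and so be too high, which was not tested. By mean level miR-3180 ranked 45 and miR-4521 ranked 55 among all 826 names. At the other end, 157 of the 272 had 10 counts or fewer over all 4 libraries, and 75 had only 2.

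Detection fell along the numbering, with an exception at its end. Counts in all 4 libraries were seen for 75.9% of the 456 names numbered under 1000, 57.3% of the 82 numbered from 1000 to under 3000 and 34.6% of the 272 late-annotated ones. Within the latter the share was 46.7% of 75 names in the 3000s, 32.3% of 65 in the 4000s, 4 of 16 names in the 5000s and 23.8% of 101 names in the 6000s. Of the 15 names numbered 7000 and above it was 66.7%, among them the abundant miR-7641, miR-7974 and miR-7706. The median level over all listed names was 2.20 CPM for the late-annotated and 55.7 CPM for those numbered under 1000. Levels are CPM scaled by TMM, the trimmed mean normalization of edgeR.

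**Figure D1:**
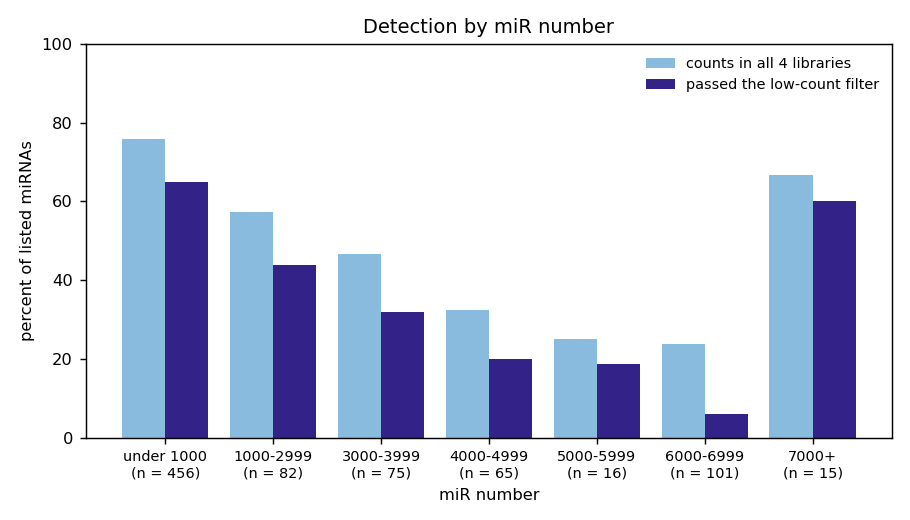
Percent of listed miRNAs (vertical axis) with counts in all 4 libraries (light bars) and passing the low-count filter (dark bars), by miR number (horizontal axis, with the number of names). The 6000s have the lowest dark bar, with 5.94% of 101 names passing, and the names numbered 7000 and above stand at 60.0%.

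The number of late-annotated miRNAs detected did not separate the treatments. It was 199 in DMSO replicate 1 and 150 in DMSO replicate 2, against 129 in entinostat replicate 1 and 186 in entinostat replicate 2. The 2 deepest libraries, 1 of each treatment, had the highest numbers, and the treatments overlapped (174.5 ± 34.6 against 157.5 ± 40.3, SD, n = 2; two-sided exact permutation p = 0.667). At the depth of the smallest library, the numbers expected to have 2 or more counts were 146 and 148 with DMSO and 129 and 154 with entinostat. Entinostat replicate 1 was still the lowest and entinostat replicate 2 the highest (147 ± 1.33 against 141 ± 17.4, SD, n = 2; p = 1, exact permutation). Without DMSO replicate 1 or without entinostat replicate 1 the difference of -17 turned to 7.5 and 11.5.

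**Figure D2:**
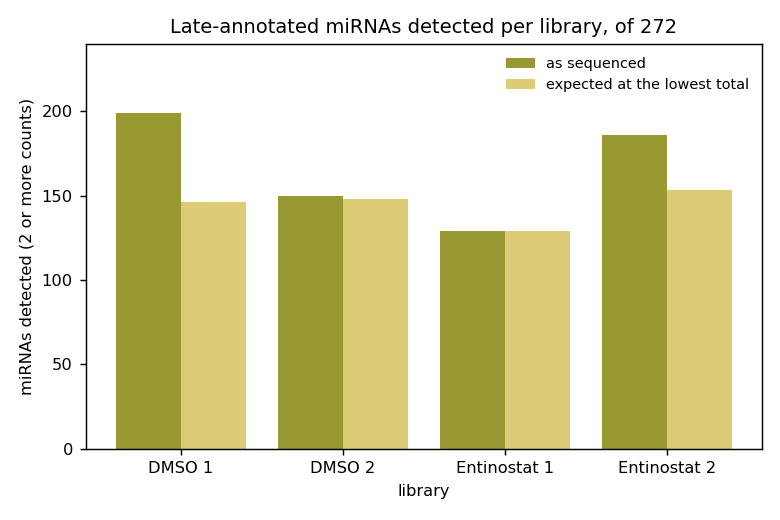
Number of late-annotated miRNAs with 2 or more counts (vertical axis) in each library (horizontal axis), as sequenced (dark bars) and expected at the lowest library total (light bars). The dark bars run from 129 to 199 and the light bars from 129 to 154, and neither set separates the treatments.

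Presence in 1 treatment alone was rare and rested on few counts. There were 11 late-annotated miRNAs (4.04%) with counts in both DMSO libraries and 0 in both entinostat libraries, against 1.82% of all 826 names. The reverse held for 2 (0.735%), against 0.969% of all names. The deepest library was a DMSO library and the shallowest an entinostat library, so depth moved in the same direction, and its part in the counts was not tested. The highest was miR-6735-3p, with 10 and 2 counts against 0 and 0. For miR-4725-3p there were 2 and 4 counts with DMSO, and for miR-3124-5p 2 and 2. In the other direction, miR-4659a-3p had 0 and 0 counts against 2 and 8. For miR-6734-3p, within an exon of ELOVL1, there were 0 and 0 against 2 and 4 counts.

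Of the 272, 55 (20.2%) passed the low-count filter and were tested, against 64.9% of names numbered under 1000. Their mean levels ran from 14.0 to 3997 CPM with a median of 33.0 CPM, where all 401 tested miRNAs had a median of 166 CPM. None of the 55 passed an adjusted p of 0.05 in the edgeR quasi-likelihood test, as did 0% of all 401 (lowest adjusted p of a late-annotated miRNA 0.595). DESeq2 and limma-voom also called 0 of them. At an unadjusted p under 0.05, edgeR and limma-voom gave miR-4521 and miR-4483, both higher, and DESeq2 gave miR-4521 alone. By edgeR that is 3.64% of the 55 higher and 0 lower, where all tested miRNAs had 2.99% higher and 3.74% lower. Over the 55, 23 log2 fold changes (entinostat over DMSO) lay above 0 and 32 below, with a median of -0.08, against 0.00466 over all 401 tested. The median was 0.04 with upper quartile scaling, which moved that of all tested miRNAs to 0.12. Without DMSO replicate 1 it was 0.0224 against 0.00727 over all tested, and without entinostat replicate 2 it was 0.0148 against -0.00440, so its place below the median of all tested depended on those libraries.

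Treatments that did not overlap were found in both directions. In 7 of the 55 (12.7%) both entinostat libraries lay above both DMSO libraries, against 20.7% of all tested miRNAs. In another 7 (12.7%) both lay below, against 20.0%. The median standard error was 0.35 log2 units over the 55 and 0.18 over all tested. A 95% interval within a 2-fold change in either direction was reached by 26 of the 55, so for the other 29 a change of that size was compatible with the data. Over all tested miRNAs 295 of 401 reached it. Among the 17 late-annotated miRNAs of 100 CPM or more, all 17 intervals lay within 2-fold and 13 within 1.5-fold. Among all 237 miRNAs of that level, 233 lay within 2-fold and 198 within 1.5-fold.

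**Figure D3:**
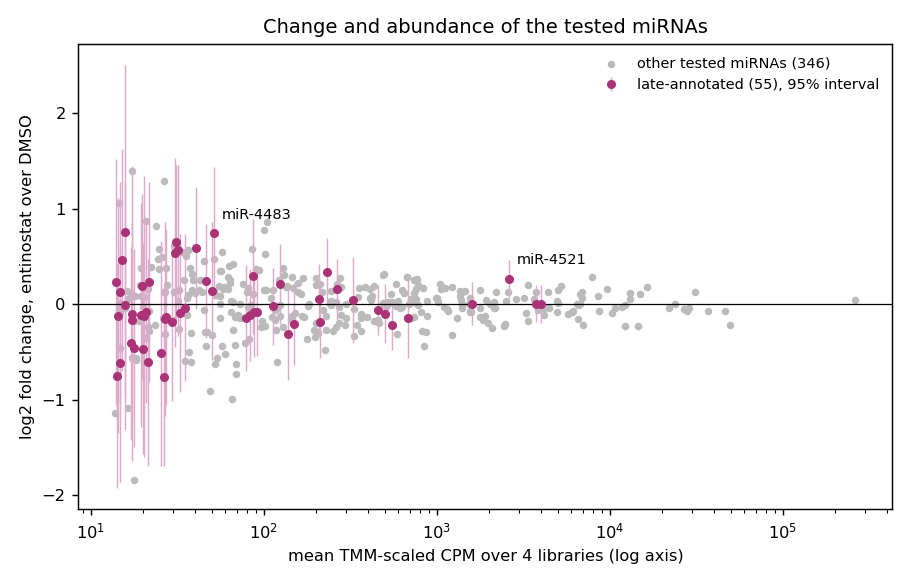
Log2 fold change of entinostat over DMSO (vertical axis) against mean TMM-scaled CPM (horizontal log axis) for the 55 late-annotated miRNAs with their 95% intervals and the other 346 tested miRNAs (grey). Late-annotated miRNAs lie mostly at the low end, with miR-3180 and miR-3180-3p near 0 at the high end and miR-4521 at 0.27.

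The 3 miR-3180 names were among the 4 most abundant, and their log2 fold changes lay near 0. Levels of miR-3180 were 3890.5 and 4089.8 CPM with DMSO and 4180 and 3827 CPM with entinostat. The 2 entinostat libraries enclosed both DMSO libraries, and the log2 fold change was 0.00466 with a 95% interval of -0.19 to 0.20. For miR-3180-3p the levels were 3694 and 3829.8 CPM against 3915 and 3645 CPM (log2 fold change 0.01, -0.19 to 0.20). For miR-3180-5p they were 1639.7 and 1535 CPM against 1502 and 1689 CPM (0.01, -0.22 to 0.24). Leaving out single libraries turned the sign of all 3, never beyond -0.09, so no direction is given.

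On chromosome 16 (GRCh38), miR-3180 is placed at MIR3180-5, which is intergenic (2136076 to 2136094, minus strand), and at MIR3180-4, opposite an exon of the long non-coding RNA AC126763.1 (15154949 to 15154967, minus strand). The sites of miR-3180-3p are MIR3180-2 (16309936 to 16309957, plus strand) and MIR3180-3 (18402189 to 18402210, minus strand), each opposite an exon of another long non-coding RNA. In every library the count of miR-3180 was 1.05 to 1.07 times that of miR-3180-3p, an excess of 138 to 184 counts. Names with identical mature sequences, miR-365a-3p and miR-365b-3p, have equal counts in all 4 libraries of this table. The nested miR-1268a and miR-1268b have equal counts in 3 of them. Nesting did not always go with like counts: miR-548av-3p, inside miR-548ah-3p, had 3, 2, 3 and 2 counts where the longer name had 576, 441, 463 and 620. Whether reads were counted under both miR-3180 names was not tested, and their sum may count a read more than once. Without miR-3180 the late-annotated share of all counts was 1.37% and 1.35% with DMSO and 1.37% and 1.43% with entinostat.

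The lowest p of the 55 was that of miR-4521. Levels were 2398 and 2367 CPM in the DMSO libraries, against 2761 and 2978 CPM in the entinostat ones. Its sequence is intergenic (chromosome 17, 8186948 to 8186969, plus strand). Both entinostat libraries lay above both DMSO libraries. The means were 2383 ± 22.0 and 2869 ± 153 CPM (SD, n = 2), 1.20 times as high (log2 scale 0.27, SE 0.09, 95% interval 0.07 to 0.47; edgeR unadjusted p = 0.0141, adjusted p = 0.595). The log2 fold change ran from 0.21 to 0.31 when 1 library was left out. Its unadjusted p was under 0.05 when entinostat replicate 1 was left out, and not when DMSO replicate 1, DMSO replicate 2 or entinostat replicate 2 was. Without entinostat replicate 2 no late-annotated miRNA had an unadjusted p under 0.05.

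**Figure D4:**
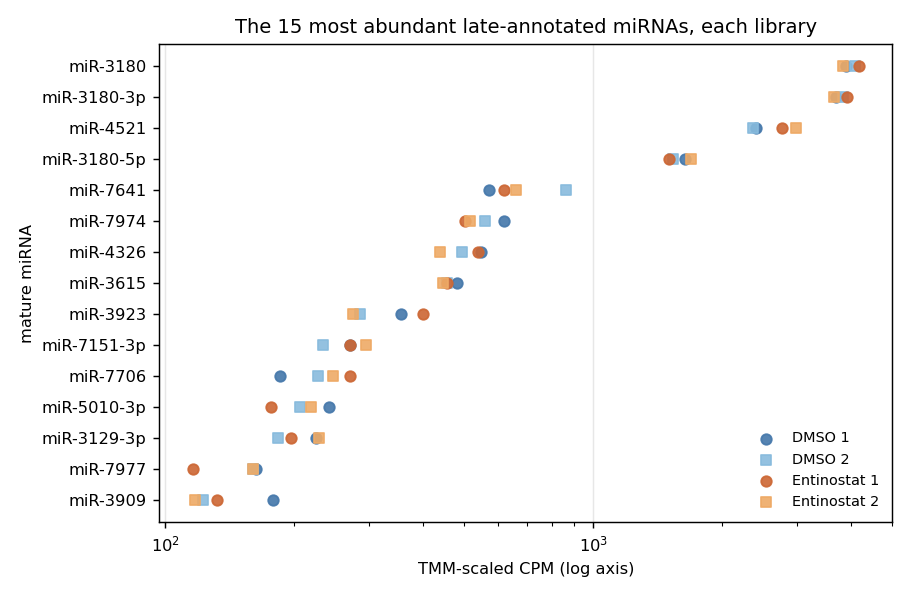
TMM-scaled CPM (horizontal log axis) of the 15 most abundant late-annotated miRNAs (vertical axis) in each library, with circles for replicate 1 and squares for replicate 2. Both entinostat points of miR-4521 lie to the right of both DMSO points, at 2761 and 2978 against 2398 and 2367 CPM, while the points of miR-3180 are mixed.

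Among the rarer miRNAs on the higher side, none passed the threshold. Levels of miR-4483, a sequence of 17 bases opposite an intron of PLEKHS1, were 48.2 and 26.7 CPM with DMSO and 66.3 and 65.9 CPM with entinostat (log2 fold change 0.74, 0.05 to 1.43). Leaving out DMSO replicate 1 gave 1.29 and leaving out DMSO replicate 2 gave 0.43, so the size depended on which DMSO library was kept. Levels of miR-7706, inside an exon of AKAP13, were 185 and 228 CPM against 271 and 247 CPM (0.34, -0.02 to 0.69, or 0.16 without DMSO replicate 1). For the intergenic miR-4421 they were 34.2 and 30.3 CPM against 49.7 and 48.8 CPM (0.59, -0.05 to 1.23). For miR-3934-5p, opposite an exon of UQCC2, they were 26.8 and 21.4 CPM against 31.3 and 44.8 CPM (0.66, -0.15 to 1.46, or 0.34 without entinostat replicate 2). In all 4 the treatments did not overlap, and each had an edgeR adjusted p of 0.595. These miRNAs have no single place in common: 1 is intergenic, 1 exonic and 2 lie opposite a gene.

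On the lower side, miR-7974 had the lowest p. It lies in an intron of ZNF653 (chromosome 19, 11495544 to 11495567, minus strand) and was at 619.7 and 559 CPM with DMSO and 501 and 515 CPM with entinostat, without overlap (log2 fold change -0.22, SE 0.11, edgeR adjusted p = 0.595). Levels of miR-3690 were 40.7 and 24.9 CPM against 23.9 and 17.1 CPM (-0.76, 95% interval -1.69 to 0.18, or -0.32 without DMSO replicate 1). For miR-3909, from an intron of TOM1, they were 179 and 123 CPM against 133 and 117 CPM (-0.31, -0.79 to 0.17), which overlap, and without DMSO replicate 1 the value was 0.00359. For miR-7976, from an intron of TPRA1, they were 27.8 and 24.9 CPM against 9.20 and 23.7 CPM (-0.61, -1.70 to 0.48, or -0.18 without entinostat replicate 1 and -1.52 without entinostat replicate 2), where 1 entinostat library was low and the other was near the DMSO level. Levels of miR-3127-5p, from an intron of CNNM4, were 18.2 and 17.8 CPM against 7.36 and 13.2 CPM (-0.75, -1.92 to 0.43, or -0.46 without entinostat replicate 1 and -1.28 without entinostat replicate 2). All of these intervals include 0.

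In other abundant late-annotated miRNAs the treatments were mixed or close. The sequence of miR-3615 lies in an exon of SLC9A3R1, which encodes a scaffold protein (chromosome 17, 74748663 to 74748683, plus strand). Its levels were 481 and 456 CPM with DMSO and 455 and 446 CPM with entinostat (log2 fold change -0.06, -0.32 to 0.20). For miR-4326 they were 546 and 493 CPM against 539 and 439 CPM, and for miR-3923, opposite an intron of the axon guidance receptor gene ROBO1, 356 and 285 CPM against 401 and 274 CPM. In miR-3923 replicate 1 was higher in both treatments. These 3 had adjusted p of 0.898, 0.859 and 0.964 in the edgeR test. Both entinostat values of miR-3615 lay below both DMSO values, with the nearest at 455 and 456 CPM. For miR-7151-3p levels were 271 and 233 CPM against 271 and 294 CPM (0.16, -0.16 to 0.48). A list of 6 names in or beside well-known host genes, recalled without a database, had only miR-3615 tested.

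Entries with sequence like ribosomal, transfer, small nucleolar or mitochondrial RNA were followed as a list of 10 names, recalled without a database. It held 0.0788% and 0.111% of counts with DMSO and 0.0796% and 0.0936% with entinostat, and 4 were tested, with 1 above 0 and 3 below. The largest, miR-7641, was at 570.5 and 864 CPM against 618 and 662 CPM, so the 2 DMSO libraries enclosed the entinostat ones (log2 fold change -0.14, or 0.14 without DMSO replicate 2). Levels of miR-7977 were 163 and 160.3 CPM against 116 and 161 CPM (-0.20, -0.63 to 0.23). The rare miR-4532 was at 3.21 and 23.2 CPM against 14.7 and 22.4 CPM, and miR-7704 at 8.56 and 28.5 CPM against 22.1 and 10.5 CPM. The highest count outside the tested set was that of miR-3656, with 6, 7, 6 and 18 counts. Of the 236 sequences, 2 (0.847%) lay in full within a GENCODE transcript of another RNA class. These were miR-4485-3p in the mitochondrial ribosomal RNA gene MT-RNR2 and miR-6516-5p in SCARNA16. Among names numbered under 1000 it was 4 of 407 (0.983%), and among those from 1000 to under 3000 it was 2 of 72 (2.78%). Of the recalled list only miR-4485-3p was matched, so a full match does not measure likeness of sequence. No match in any set was to transfer RNA, and whether its genes were among the transcripts searched was not tested.

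Mirtrons are cut out by the splicing machinery, so the 3p arm ends where the intron ends, at the AG of the splice acceptor. A list of numbers from the late 6000s and early 7000s, most of them registered from surveys of such introns, with miR-3940 and miR-5010, gave 93 of the 272. It was recalled without a database. The last 2 bases are in capitals in the 4 below, which show the shared end.
miR-5010-3p: uuuugugucucccauuccccAG
miR-6777-3p: uccacucuccuggcccccAG
miR-7111-3p: auccucucuucccuccucccAG
miR-6873-3p: uucucucugucuuucucucucAG
Of the 65 3p sequences in this list, 61 (93.8%) ended in AG. The same end was found in 15 of 53 (28.3%) other late-annotated 3p sequences and in 5 of 188 (2.66%) of those numbered under 1000. Of the 3p sequences numbered from 1000 to under 3000, 7 of 28 had it. That share was near that of the other late-annotated ones, so outside the list the end was not particular to late-annotated names. An AG at the end is a description of the letters and does not by itself show how a miRNA was made.

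The mirtron list was long and thinly covered. Of its 93 names, 76 were 3p arms with 1411 counts and 17 were 5p arms with 120 counts. Only 5 (5.38%) were tested, all 3p arms, and 21 (22.6%) had counts in all 4 libraries. The most abundant, miR-5010-3p from an intron of the proton pump gene ATP6V0A1 (chromosome 17, 42514267 to 42514288, plus strand), had 242 and 207 CPM with DMSO and 177 and 219 CPM with entinostat (log2 fold change -0.18, -0.56 to 0.19). Levels of miR-6777-3p, in an intron of the lipid regulator gene SREBF1, were 16.1 and 21.4 CPM against 22.1 and 19.8 CPM. For miR-6747-3p they were 36.4 and 19.6 CPM against 23.9 and 29.0 CPM, and for miR-7111-3p, in an intron of the ribosomal protein gene RPL10A, 27.8 and 10.7 CPM against 22.1 and 17.1 CPM. In these 3 the treatments overlapped. The fifth tested name, miR-6873-3p, was described after its values were seen: it had 18.2 and 23.2 CPM in DMSO libraries and 16.6 and 13.2 CPM in entinostat libraries, without overlap. Its log2 fold change of -0.46 (-1.50 to 0.58) was the farthest from 0 of the 5, with an edgeR adjusted p of 0.783. Of all counts the list held 0.0616% and 0.0541% in DMSO libraries, against 0.0449% and 0.0535% in entinostat libraries.

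A few late-annotated miRNAs lie opposite a hairpin registered before them. The hairpin of miR-3065 lies opposite that of miR-338, known from nerve tissue, and on the strand opposite an intron of AATK (miR-3065-5p at chromosome 17, 81125886 to 81125908, plus strand). For miR-3065-5p the counts were 105 and 67 in DMSO libraries, against 64 and 112 in entinostat libraries. Those of miR-338-3p, the arm most studied, were 2 and 2 against 0 and 2. In every library the late name was thus the far higher of these. The other arm of the older hairpin, miR-338-5p, had 65, 36, 33 and 50 counts, and miR-3065-3p had 25, 24, 16 and 25. None of the 3 tested ones differed between treatments by the edgeR test (adjusted p = 0.741 for miR-3065-5p, 0.961 for miR-3065-3p and 0.927 for miR-338-5p). The product opposite the miR-24-1 hairpin, miR-3074-5p, had 109, 62, 57 and 90 counts, or 114 ± 4.40 and 112 ± 9.70 CPM (SD, n = 2), where miR-24-3p stood at 14338 ± 1344 and 15455 ± 1847 CPM.

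Both arms were listed for 30 late-annotated hairpins. The 3p arm had more counts in 17 and the 5p arm in 7, and the rest were tied. In miR-3180 the 5p arm held 30.7% and 28.6% of the arm counts with DMSO and 27.7% and 31.7% with entinostat. Those shares set miR-3180-5p against miR-3180-3p. They leave out the name miR-3180, whose sequence lies within miR-3180-3p. In miR-3065 the 5p arm held 80.8%, 73.6%, 80.0% and 81.8%. In miR-7151 the 3p arm led, with 253, 131, 147 and 223 counts against 16, 4, 10 and 10 for the 5p arm. The same was true of miR-3129, from an intron of the collagen gene COL5A2, with 210, 103, 107 and 174 counts for 3p and 16, 11, 10 and 11 for 5p. The leading arm was thus the same in all 4 libraries for these hairpins. In miR-3127 it was not: 3p led with 29, 15 and 18 counts against 17, 10 and 4, but in entinostat replicate 2 it had 8 against 10.

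Among the listed names with a sequence, the only ones compared, seeds of late-annotated miRNAs were mostly their own. The 236 sequences had 231 distinct seeds, and 7 of them (2.97%) shared a seed with a listed miRNA outside the set. The sequences below show such a case of each kind, with the seed in capitals.
miR-3129-5p: gCAGUAGUguagagauugguuu
miR-4465: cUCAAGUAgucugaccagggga
miR-6511a-3p: cCUCACCAucccuucugccugc
miR-6511b-3p: cCUCACCAccccuucugccugca
The seed of miR-3129-5p is that of miR-199a-3p and miR-199b-3p, miRNAs of mesenchymal cells. It had 48 counts over the 4 libraries, where those 2 names, identical in sequence, had 4 each, in 1 library only. The seed of miR-4465 is that of miR-26a-5p and miR-26b-5p, which held 65263 counts against its 11. The 3p sequences of miR-6511a and miR-6511b share a seed and differ at 1 base in their common length (U9C, counted from the 5′ end of miR-6511a-3p). They had 80 and 226 counts, and reads of the 2 could be mixed.

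Late-annotated sequences also differed in composition from those numbered under 1000. They held 57.9% G and C on average against 49.0%, and 51.7% began with U against 38.1%. The share of 20 bases or fewer was 12.3% (29 of 236) against 3.93% (16 of 407), with a median length of 22 bases in both. The 72 sequences numbered from 1000 to under 3000 were near the late-annotated in G and C content, at 59.5%. They had a larger share of 20 bases or fewer, at 18.1%, and 31.9% of them began with U. Among the 47 tested late-annotated ones with a sequence, 9 had 20 bases or fewer, among them miR-3180, miR-7977, miR-4455 and miR-4483. Short sequences can match more places in a genome, and how the authors placed such reads is not given in the sources used here.

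By GENCODE release 29 (GRCh38), 144 of the 236 placed late-annotated miRNAs (61.0%) lay in an intron and 45 (19.1%) in an exon of a gene on their strand. A further 21 (8.90%) lay opposite a gene, 19 (8.05%) were intergenic and 7 had copies that differed in this. Of the tested ones, 20 were intronic, 5 exonic, 11 opposite a gene and 8 intergenic. The tested share was 11.1% of the exonic, 13.9% of the intronic, 42.1% of the intergenic and 52.4% of those opposite a gene.

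Replicates of late-annotated miRNAs varied by more than counting noise. Over those with 10 or more counts in a treatment, chi-square per degree of freedom was 2.44 for the DMSO pair (89 miRNAs) and 2.20 for the entinostat pair (78 miRNAs), where 1 is sampling noise alone. Over all names with such counts it was higher, at 5.93 and 7.51. At the same relative spread this ratio grows with the counts, so it cannot compare sets of unlike level. The root mean square log2 difference over the 55 tested was 0.59 within the DMSO pair and 0.55 within the entinostat pair. Pairs across treatments were at 0.48, 0.50, 0.53 and 0.57, a range that overlaps the distances within treatments. Over all 401 tested miRNAs the difference was smaller, at 0.39 within the DMSO pair and 0.43 within the entinostat pair.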

How the data were processed

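Small RNA libraries of H661 cells (NEB reagents, 1 µg of total RNA, per the labels' protocols) were made from 2 DMSO and 2 entinostat samples. The authors deposited raw counts per mature miRNA and the same values as CPM. Each deposited CPM equalled the count over its column total within 1e-04 in 100% of names. Only bcl2fastq 2.18 is named, per the submitters' processing notes. For the aligner, miRNA release, strand use and reads matching several names, nothing is given in the sources used here.

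All 826 names entered the analysis and 401 passed edgeR's default low-count filter (count minimum 10, total minimum 15). Counts were tested with edgeR 4.0.16 (R 4.3.3, quasi-likelihood, TMM scaling, no covariate) and Benjamini-Hochberg adjustment over all 401, with calls at an adjusted p of 0.05. The biological coefficient of variation was 8.05%. The test was checked on simulated data. Alternatives used DESeq2 1.42.0 and limma 3.58.1. Shares and numbers detected were compared with two-sided exact permutation tests. Expected detection at 2 or more counts is the hypergeometric expectation at the lowest library total. That floor was set after the table was found to hold no 1.

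The late-annotated miRNAs and lists were chosen with earlier results of these data known. Named were the 10 most abundant tested, the 5 of lowest p in each direction, both arms of hairpins with both arms tested (up to 6), up to 4 tested per list, the largest count not tested, and up to 5 seen in 1 treatment only. Others are named for sequence features. The labels do not say whether same-numbered libraries were paired. The correlation of same-numbered deviations was -0.124, and with 2 libraries per treatment it cannot settle this.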

Additional observations from a re-analysis of the deposited data

How the results depend on the processing

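Alternative runs with all 4 libraries and no summed names called no late-annotated miRNA. Of all tested miRNAs they also called 0. Of 385 alternative values of 32 named miRNAs, 345 kept direction and side of the threshold and 40 turned sign, over 19 miRNAs. An unadjusted p under 0.05 was met by 2 of 55 late-annotated miRNAs in the main edgeR run, against 27 of all 401 tested. Under upper quartile scaling it was 4 of 55 against 44 of 401. With no filter it was 6 of 272 against 45 of 826, and by DESeq2 1 of 55 against 15 of 401. The replicate block gave 2 of 55 against 25 of 401. The crossed pairing, chosen after seeing the data, gave 2 of 55 against 32 of 401. Neither block changed a call. The median log2 fold change of -0.08 was 0.0408 under upper quartile scaling, -0.0190 with no filter, -0.0200 by limma-voom, -0.0370 with the replicate block, 0.00466 over the 17 of 100 CPM or more (chosen after seeing the data) and -0.0967 to 0.0224 with 1 library left out. Without miR-4521 (chosen after seeing the data) the difference in share was -0.00902 percentage points. With miR-4521 kept and 1 library left out, the difference in share was 0.0272 to 0.0530 percentage points. With 1 library left out, the difference in number detected was -45.5 to 11.5. Apart from this construction the cause was not tested.

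Signs turned for miR-3180 with DESeq2's size factors (-0.00122), by DESeq2 (-0.00122) and with a mean CPM of 10 or more (-0.00859). That filter also turned miR-3180-3p (-0.00649) and miR-3180-5p (-0.00653), and summing turned miR-3180-3p (-0.000317). Upper quartile scaling turned miR-4326 (0.0170), miR-3615 (0.0562), miR-3065-3p (0.0282), miR-3074-5p (0.101), miR-7111-3p (0.0212) and miR-7704 (0.0155). The replicate block turned miR-7111-3p (0.0560) and limma-voom miR-7704 (0.0926).

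With 1 library left out, log2 fold changes crossed 0 for miR-3180 (-0.0715 to 0.0629), miR-3180-3p (-0.0571 to 0.0533), miR-3180-5p (-0.0876 to 0.0730), miR-7641 (-0.44 to 0.14), miR-4326 (-0.264 to 0.0421), miR-3923 (-0.26 to 0.30) and miR-3909 (-0.55 to 0.00359). They also did for miR-7151-5p (-0.17 to 1.09), miR-3129-3p (-0.10 to 0.21), miR-3129-5p (-0.337 to 0.0148), miR-3065-3p (-0.46 to 0.20), miR-3127-3p (-1.47 to 0.17) and miR-3074-5p (-0.125 to 0.0420). The others were miR-6747-3p (-0.47 to 0.43), miR-6777-3p (-0.0513 to 0.343), miR-7111-3p (-0.55 to 0.83), miR-7704 (-0.87 to 0.83) and miR-4532 (-0.29 to 2.48). Counts were low for most late-annotated miRNAs, with a median of 6 over all 4 libraries.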
